A study of Mus musculus with 4 samples.

Results

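Collagens are the main proteins of the extracellular matrix, and 35 collagen genes of the mouse were followed here in prostate spheres grown with or without an inhibitor of Notch processing. The genes were taken by name and grouped by structural class into 10 fibrillar collagens, 9 network and basement membrane collagens, 7 FACIT collagens (fibril-associated collagens with interrupted helices) and 9 others. Col17a1, a collagen of the basal cell's own adhesion plaques, was not in the group. Of the 35 genes, 33 had a probe that could be named and 30 could be tested, among 21469 genes tested in all. Col6a3 and Col12a1 had no named probe and were not analysed here. Col14a1, Col19a1 and Col23a1 were too dim to test, since in neither group were both arrays well above background. The gene group was chosen on the DAPT-against-vehicle log2 ratios of these same 4 arrays, in which many collagens had been seen to be low. Its values, calls and counts below therefore describe the arrays, and no p-value is given for a collagen of the group.

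Basal cells of the prostate had been sorted by flow cytometry from adult FVB mice and grown in a sphere culture, in which single cells grow into balls of cells. The vehicle group (DMSO) and the DAPT group (5 µM) had 2 arrays each, and medium with either agent was renewed every 24 hours. DAPT blocks γ-secretase, the protease that releases the intracellular part of Notch receptors and of other membrane proteins, so the treatment is not specific to Notch. On every array 2.5 µg of total RNA had gone into the work-up, sphere RNA carried the red dye and the same universal mouse reference RNA, pooled from mouse cell lines, carried the green dye. Neither animal numbers nor separate cultures are stated for the arrays, so the spread between them may be technical. A log2 ratio below is log2 of sphere signal over reference signal, and a change is the mean ratio of the DAPT arrays minus that of the vehicle arrays.

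Fibrillar collagens (types I, II, III, V, XI and XXVII) assemble end to end and side by side into the fibrils that give connective tissue its strength, and in the prostate fibroblasts and smooth muscle cells of the stroma are their main source. Type IV collagen forms the sheet-like network of the basement membrane on which basal cells sit. Types VIII and X form other networks, FACIT collagens decorate fibrils, type VI forms beaded filaments, and type VII makes the anchoring fibrils that tie an epithelium to the tissue below. Collagens share enzymes and helpers that hydroxylate, fold and export them. Some are also cut, and enzymes of the lysyl oxidase family crosslink many of them outside the cell.

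A gene was called when its adjusted p was under 0.05 in a limma fit across all genes tested. Of the 30 collagens tested, 14 were called lower with DAPT and none higher. At an unadjusted p under 0.05, 22 were lower and 2 higher, against 2828 lower and 2144 higher of all 21469 genes tested. Among all genes tested, 4.0% were called lower and 2.82% higher. Since the group was chosen on this contrast, nothing is read from these differences. The median change of the 30 collagens was -0.72, and that of all genes was -0.06. Both DAPT ratios lay below both vehicle ratios in 24 of the 30 collagens and above both in 3, where these orders held for 31.9% and 21.8% of all genes. By class, 7 of 10 fibrillar, 4 of 9 network, 1 of 4 FACIT and 2 of 7 other collagens were called lower, with median changes of -1.16, -0.56, -0.46 and -0.70. The bulk RNA of a sphere culture cannot separate fewer cells of a type from less RNA per cell.

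**Figure D1:**
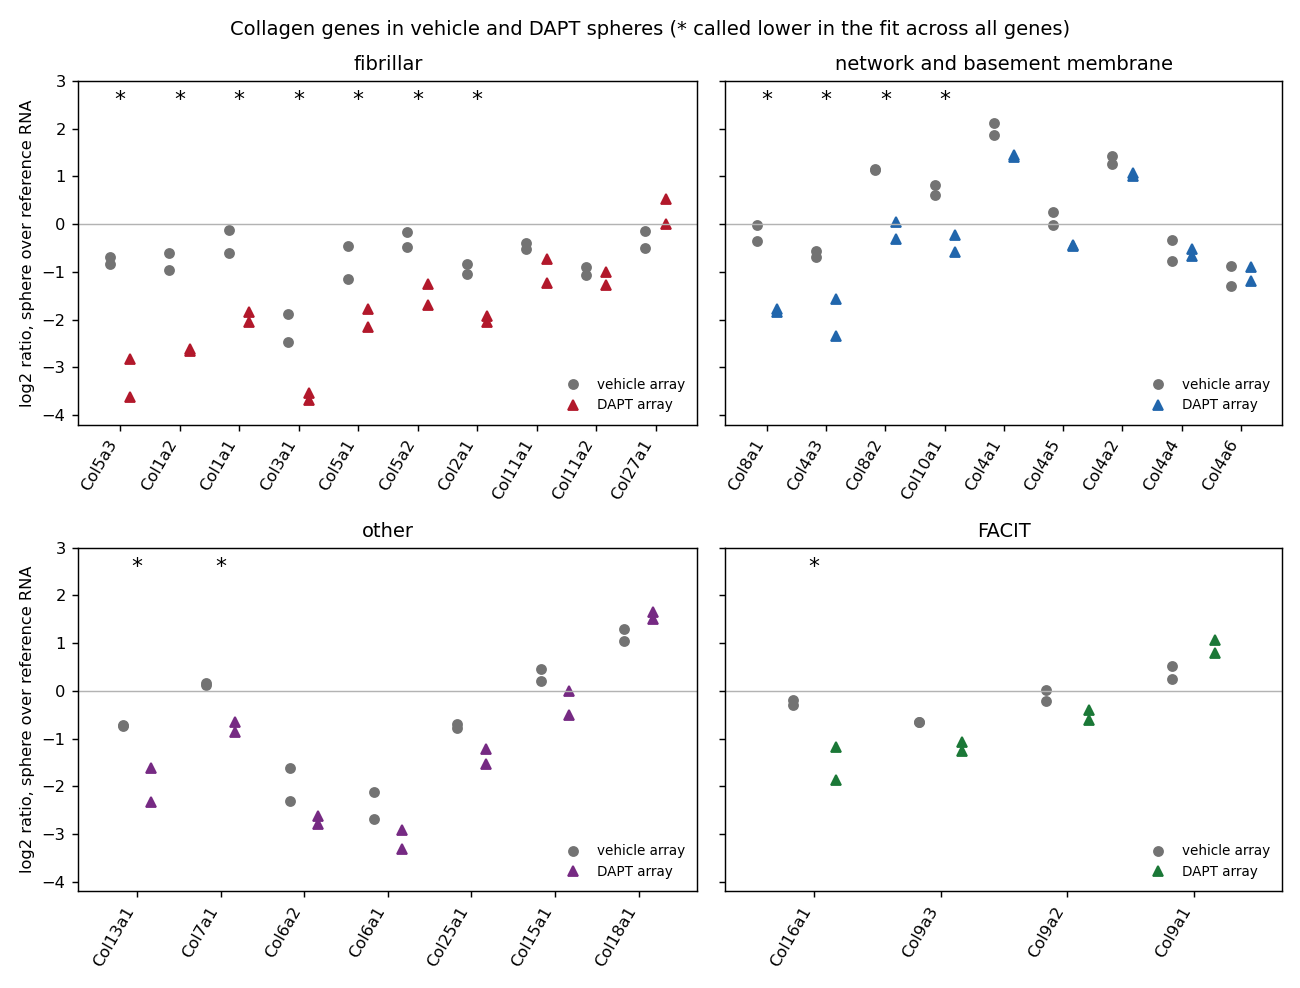
Log2 ratio of sphere RNA over reference RNA (y axis) for each of the 30 collagen genes tested (x axis), by structural class; grey circles are the 2 vehicle arrays, coloured triangles the 2 DAPT arrays, and a star marks a gene called lower. In 24 of the 30 genes both triangles lie below both circles, and 14 genes carry a star.

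The upstream bases of 4 genes called lower and of Col4a2, which was not called, are shown here because these genes stand for the fibrillar, anchoring-fibril and basement membrane forms described below. Each is the 250 bases before the gene's start in RefSeq on GRCm38.p6, written 5′ to 3′ on the gene's strand. They come from chr6:4505368-4505617 (plus strand), chr1:45311288-45311537 (plus), chr9:20815068-20815317 (minus), chr9:108953336-108953585 (plus) and chr8:11312555-11312804 (plus). Capitals mark matches on either strand to the letters TATAAA (a box that helps place the start), CCAAT (a box bound by NF-Y), GGGCGG (a GC box, bound by Sp1), TGGGAA (the core bound by RBPJ, the DNA-binding partner of Notch) or TGANTCA (bound by AP-1).
Col1a2: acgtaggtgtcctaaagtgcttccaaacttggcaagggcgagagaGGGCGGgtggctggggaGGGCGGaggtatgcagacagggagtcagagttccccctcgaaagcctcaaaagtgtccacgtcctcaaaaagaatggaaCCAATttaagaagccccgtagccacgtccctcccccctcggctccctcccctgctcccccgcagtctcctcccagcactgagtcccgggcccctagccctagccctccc
Col3a1: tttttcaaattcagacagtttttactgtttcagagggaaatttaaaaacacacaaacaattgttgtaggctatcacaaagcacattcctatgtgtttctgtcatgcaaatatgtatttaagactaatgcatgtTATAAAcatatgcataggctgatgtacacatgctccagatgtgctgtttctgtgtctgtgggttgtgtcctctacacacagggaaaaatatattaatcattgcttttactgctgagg
Col5a3: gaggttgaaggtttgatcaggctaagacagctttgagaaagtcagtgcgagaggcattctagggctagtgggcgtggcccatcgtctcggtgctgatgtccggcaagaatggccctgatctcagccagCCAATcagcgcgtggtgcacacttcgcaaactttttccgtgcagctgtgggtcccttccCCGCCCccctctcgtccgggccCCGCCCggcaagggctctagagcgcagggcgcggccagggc
Col7a1: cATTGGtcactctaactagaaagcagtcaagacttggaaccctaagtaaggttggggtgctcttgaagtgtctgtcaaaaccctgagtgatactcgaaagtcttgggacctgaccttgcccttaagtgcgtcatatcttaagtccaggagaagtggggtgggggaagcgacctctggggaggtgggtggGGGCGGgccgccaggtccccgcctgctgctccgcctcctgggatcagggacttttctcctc
Col4a2: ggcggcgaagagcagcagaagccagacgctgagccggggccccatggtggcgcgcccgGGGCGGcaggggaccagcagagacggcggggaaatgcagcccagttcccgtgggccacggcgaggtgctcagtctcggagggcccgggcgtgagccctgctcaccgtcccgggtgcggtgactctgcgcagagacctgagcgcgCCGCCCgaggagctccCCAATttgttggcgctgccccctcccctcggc
The Col1a2 and Col5a3 stretches each hold 2 GC boxes and a CCAAT match, and so does that of Col4a2, which was not called. The Col7a1 stretch holds a GC box and a CCAAT match, while the Col3a1 stretch holds only a TATAAA match, 117 bases before the start. Neither the RBPJ core letters nor the AP-1 letters occur in these 5 stretches. Over the full RefSeq windows of 300 bases (250 before and 50 after the start), 28 of the 35 genes matched with 31 windows. TGGGAA was in 7 of the 31 windows and in 2 of the 10 windows of genes called lower, against 25.6% of all 32851 windows. GGGCGG was in 20 of 31 and in 7 of 10, against 35.7% of all windows, and CCAAT in 11 and in 4, against 37.4%. TATAAA was in 4 of the 31 windows (3 of 10, against 13.6%) and TGANTCA in 1 (none of 10, against 7.81%). A match is only a match of letters in this window.

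Type I collagen, the most abundant fibril protein of connective tissue, is built from the products of Col1a1 and Col1a2. The Col1a2 ratio was -0.96 and -0.60 on the vehicle arrays and -2.65 and -2.61 on the DAPT arrays. Its change was -1.85 ± 0.20 (SE, 2 arrays a group), which is 3.60-fold lower with DAPT. For Col1a1 the ratios were -0.61 and -0.13 with vehicle and -2.05 and -1.85 with DAPT, a change of -1.58 ± 0.22 or 3.00-fold. The chains of type I collagen thus showed like decreases, and in neither gene did the groups overlap. Col3a1, whose product shares fibrils with type I in soft tissues, read -2.48 and -1.88 with vehicle and -3.69 and -3.54 with DAPT (change -1.44 ± 0.23, 2.71-fold). It was already well below the reference in the vehicle spheres.

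Type V collagen starts fibrils and limits their width, and all 3 of its genes were called lower. Read on its brightest probe, Col5a3 had the largest change of the 30 collagens. With the mean of a gene's probes it was at -1.63, behind Col1a2 at -1.85 and Col1a1 at -1.69. In the red channel its change of -1.20 was behind those of Col1a2 (-1.47), Col8a2 (-1.33), Col5a2 (-1.29) and Col3a1 (-1.26). Its ratio was -0.84 and -0.69 on the vehicle arrays and -2.82 and -3.63 on the DAPT arrays, and the change was -2.46 ± 0.25 (5.51-fold). Col5a1 ratios were -1.16 and -0.46 with vehicle and -1.79 and -2.16 with DAPT (change -1.17 ± 0.25, 2.24-fold). The vehicle arrays differed from each other for Col5a1 by more than the nearest arrays of the groups did, and without vehicle 2 the change was -0.81 and no longer called. Col5a2 ratios were -0.47 and -0.16 with vehicle and -1.68 and -1.26 with DAPT (change -1.16 ± 0.22, 2.23-fold). Col5a2 is the neighbour of Col3a1 on its chromosome, and both were called lower. Col2a1, the fibril collagen of cartilage, read -1.04 and -0.83 with vehicle and -1.92 and -2.06 with DAPT (change -1.06 ± 0.20, 2.08-fold). The ratio of its other kept probe moved the opposite way, as given below.

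The remaining 3 fibrillar genes were not called. Col11a1 and Col11a2, which encode chains of the thin cartilage fibrils, changed by -0.52 and -0.15. Col27a1, a fibrillar gene of cartilage, was the one member of its class with a change above 0. Its ratios were -0.14 and -0.50 with vehicle and 0.52 and -0.01 with DAPT, a change of 0.58. All 10 fibrillar genes had a mean vehicle ratio below 0, so the reference RNA gave more signal than vehicle spheres for each of them.

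The network collagens were mixed. On the probe that stands for each gene, 5 of 9 had a mean vehicle ratio above 0. Col8a1 and Col8a2 encode the chains of a short-chain collagen found around vessels and under endothelia. Col8a1 ratios were -0.35 and -0.01 with vehicle and -1.84 and -1.77 with DAPT (change -1.62 ± 0.20, 3.08-fold). Col8a2 ratios were 1.14 and 1.16 with vehicle and -0.31 and 0.04 with DAPT (change -1.29 ± 0.20, 2.44-fold by the ratio). Its probe was not well above background on either DAPT array, so its value there is uncertain. The measured red signal was 2.51-fold lower, from a mean log2 of 8.06 with vehicle to 6.73 with DAPT. That fold is open to dye bias and larger than the fold of the ratios. Col10a1, a network collagen known from the growth plate, read 0.61 and 0.82 with vehicle and -0.23 and -0.58 with DAPT (change -1.12 ± 0.21, 2.17-fold).

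Type IV genes lie in head-to-head pairs, and the pairs are Col4a1 with Col4a2, Col4a3 with Col4a4, and Col4a5 with Col4a6. In the RefSeq windows, those of Col4a1 and Col4a2 share 78 bases. Only Col4a3 of the 6 was called lower, with ratios of -0.56 and -0.69 on the vehicle arrays and -1.57 and -2.35 on the DAPT arrays (change -1.33 ± 0.25, 2.52-fold). Its pair mate Col4a4 changed by -0.03, and a test of the difference between them was not made. Col4a1, a chain of the common basement membrane network, read 2.12 and 1.86 with vehicle and 1.44 and 1.42 with DAPT (change -0.56 ± 0.20). Col4a2, which supplies the other chain of that network, read 1.26 and 1.44 with vehicle and 1.07 and 1.02 with DAPT (change -0.30). Neither was called, and both stayed above the reference on all 4 arrays. Col4a1 was called lower with scale normalization (-0.93) and with the mean of its probes (-0.69). Col4a5 and Col4a6, whose chains occur together in some epithelial basement membranes, changed by -0.56 and 0.04.

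Of the FACIT collagens, Col16a1 was the one called. Its ratios were -0.19 and -0.30 with vehicle and -1.19 and -1.88 with DAPT (change -1.28 ± 0.24, 2.44-fold). The type IX genes Col9a1, Col9a2 and Col9a3, which encode the chains of a cartilage FACIT, changed by 0.55, -0.40 and -0.52 and were not called. The Col9a1 probe was well above background on only 1 of the 2 vehicle arrays, so its value there is uncertain.

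Col7a1 encodes the collagen of the anchoring fibrils, made by basal keratinocytes among others. Its ratios were 0.13 and 0.17 with vehicle and -0.86 and -0.66 with DAPT (change -0.91 ± 0.20, 1.88-fold). The call was lost without DAPT 1, where the change was -0.81. Col13a1, a transmembrane collagen, read -0.71 and -0.73 with vehicle and -1.62 and -2.33 with DAPT (change -1.25 ± 0.24, 2.38-fold). In both genes the groups were apart, while the DAPT arrays of Col13a1 also differed from each other.

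The other 5 tested genes of this class were not called. Col6a1 and Col6a2 changed by -0.70 ± 0.24 and -0.75 ± 0.24, and both DAPT arrays lay below both vehicle arrays. Col6a1 was called without vehicle 1 (-0.99) or without DAPT 2 (-0.90), and Col6a2 without vehicle 1 (-1.10). Col25a1, another transmembrane collagen, changed by -0.63 and Col15a1, a basement membrane zone proteoglycan, by -0.58. Col18a1 encodes the related basement membrane collagen from which endostatin is cut. It lay the other way, at 1.29 and 1.04 with vehicle and 1.66 and 1.50 with DAPT, a change of 0.41.

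A change of the ratio is the red change minus the green change, and the channels were therefore set out one by one after loess and Aquantile normalization. The reference RNA was labelled the same on all 4 arrays, so a green change does not measure RNA of the spheres. The normalization uses both channels, and its part in the green and red changes was not tested. The median red change of the 30 collagens was -0.43 and the median green change 0.34. Green was higher with DAPT in 80% of the collagens and in 53.9% of all genes. On the probe that stands for the gene, all 14 collagens called lower also had less red signal with DAPT, where 53.4% of all genes did. The other kept Col13a1 probe had more, by 0.14. In 12 of these 14 both DAPT red signals were below both vehicle red signals, an order seen in 25.1% of all genes.

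The split between channels differed from probe to probe. For Col1a2 the red change was -1.47 and the green change 0.38, for Col3a1 -1.26 and 0.18, and for Col5a2 -1.29 and -0.13. For these probes the lower ratio came mostly from less red signal after normalization. For Col10a1 the red change was -0.01 and the green change 1.10, for Col5a1 -0.21 and 0.96, and for Col16a1 -0.29 and 0.99. For these probes most of the lower ratio was a higher green signal after normalization. Counted on the probe that stands for each gene, 9 of the 14 had a larger red than green change, and the 5 with the larger green change were Col5a3 (-1.20 and 1.26), Col16a1, Col5a1, Col10a1 and Col7a1 (-0.45 and 0.46). This count depends on the probe. The other kept probe had the larger change in red for Col5a1 (-1.28 in red, 0.66 in green), Col16a1 (-0.67 and 0.27) and Col5a3 (-0.96 and -0.15). It had the larger change in green for Col13a1 (0.14 and 0.67) and Col2a1 (-0.90 and -1.40). A green rise of at least 0.5 was seen in 5 of these 14 genes, in 8 of the 30 tested and in 11.7% of all genes. Fitted on the red channel alone, no collagen was called. There 10 were lower and 2 higher at an unadjusted p under 0.05, and 1 gene of all those tested was called (2617 at an unadjusted p under 0.05).

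**Figure D2:**
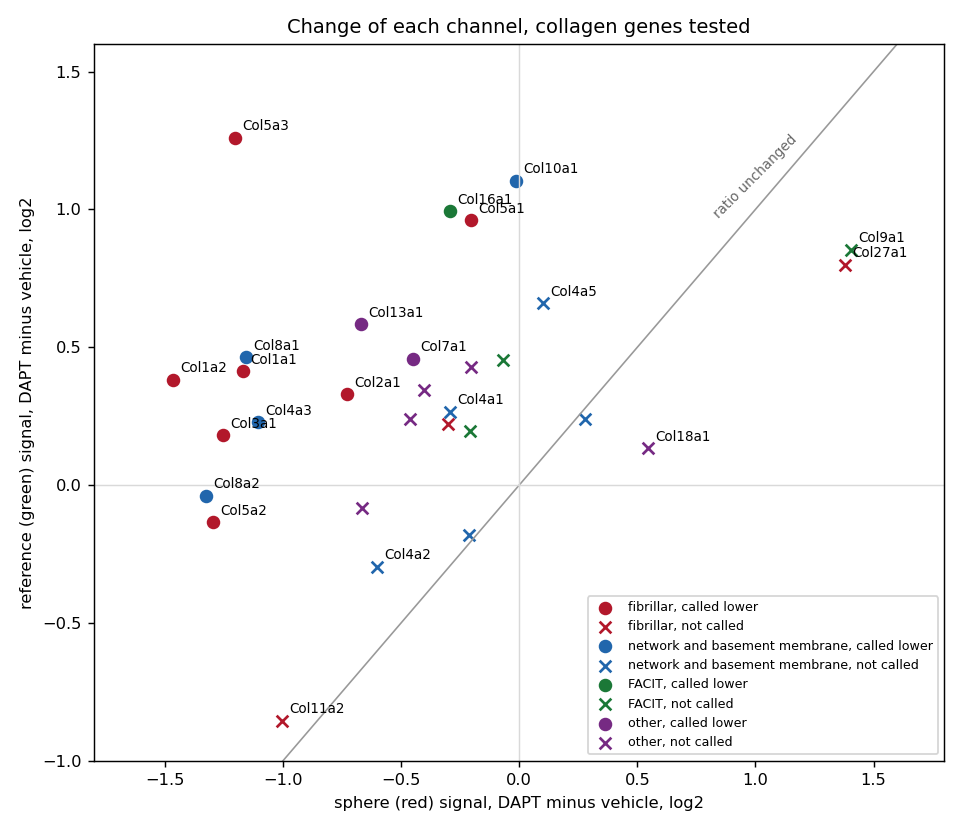
Change of the sphere signal (red channel, x axis, log2) against the change of the reference signal (green channel, y axis, log2), DAPT minus vehicle, for the 30 collagen genes tested, coloured by class; circles were called lower and crosses were not, and on the diagonal the ratio does not change. All 14 circles lie left of 0 on the x axis, and 12 of them lie above 0 on the y axis.

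Probes of the same gene were then compared. The members had 56 named probes, of which 46 were bright enough to keep, and 15 tested genes had more than 1 kept probe. In 11 of these 15 genes the kept probes had the same sign. All 3 Col1a1 probes were lower with DAPT, by -1.58, -1.55 and -1.95. Col3a1 probes changed by -1.44 and -0.88, Col5a1 probes by -1.17 and -1.94, and Col16a1 probes by -1.28 and -0.94. The sign held in each of these genes, with sizes that differed. For Col5a3 the brighter probe changed by -2.46 and the dimmer one by -0.80, so the 5.51-fold given above rests on 1 probe. The Col13a1 probes changed by -1.25 and -0.53.

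In 4 genes the probes disagreed in sign, and Col2a1 was the one of them called lower, with probes at -1.06 and 0.51. Its mean over both probes was -0.28 and not called. Both Col2a1 probes had less red signal with DAPT (-0.73 and -0.90), while their green changes were 0.33 and -1.40. Col27a1 probes changed by 0.58 and -0.87, Col4a6 probes by 0.04 and -0.75, and Col11a1 probes by -0.52 and 0.05. For these genes the direction of the ratio change depends on the probe. Col18a1 was above 0 by both probes (0.41 and 0.76) and Col4a1 below 0 by both (-0.56 and -0.82).

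**Figure D3:**
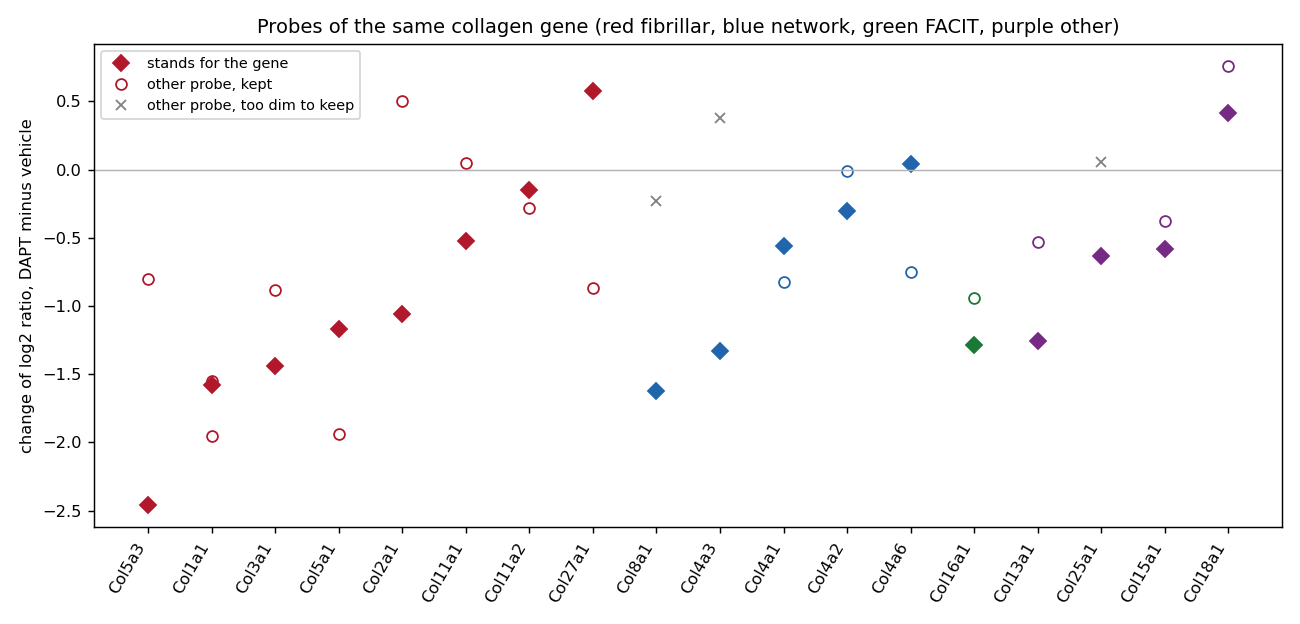
Change of the log2 ratio, DAPT minus vehicle (y axis), for every probe of the tested collagen genes that had more than 1 probe (x axis, coloured by class); diamonds are the probe that stands for the gene, open circles other kept probes and grey crosses probes too dim to keep. The 3 Col1a1 probes lie between -1.55 and -1.95, while the Col2a1 probes lie on both sides of 0.

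Several technical values moved with the groups. The scanner software marked the spots of 5 and 17 of the 30 collagen probes as non-uniform or outlying on the vehicle arrays and of 28 and 27 on the DAPT arrays, and 11.5%, 29.2%, 49.6% and 50.9% of all probe spots. With marked spots left out, 3 of the 14 called collagens could be tested (Col2a1, Col5a2 and Col8a2), and all 3 were called. Col8a2 was dim on the DAPT arrays and entered through the vehicle arrays, and the other kept Col2a1 probe moved the opposite way. Nothing is read from this count. The median red signal over background was 1.95 and 1.83 on the vehicle arrays and 2.84 and 2.40 on the DAPT arrays, and no probe spot was saturated. All 4 arrays were on 1 slide, with the vehicle arrays in neighbouring positions and the DAPT arrays in the others, so position and treatment cannot be told apart. Across all genes, log ratios of the pair of vehicle arrays had an r of 0.921, those of the DAPT pair 0.943, and those of arrays from different groups 0.838 to 0.878. The part of the marks and of the brightness in the collagen changes was not tested further.

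The calls depended on the processing. Keeping 13 debris spots of the DAPT 2 array, whose local background was over 5 times the array's median, left 2 collagens called lower (Col1a2 and Col5a3), and the scanner's own processed signals left 6. With each array centred on its median in place of loess, 8 of the 14 stayed called, Col4a5 was newly called lower (-0.91), and Col18a1 (0.88) and Col27a1 (1.00) were called higher. All genes then split into 1220 higher and 531 lower, against 605 and 858 with loess, and the median of all genes moved from -0.06 to 0.11. Among all 14 collagens called lower, the change was below 0 in each alternative in which they could be tested.

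Genes that make, cut and crosslink collagen were read from the same fit as a list of 34, of which 31 could be tested. Of these, 5 were called lower and 1 higher, where 4.0% and 2.82% of all genes were. This list and those below were written with earlier results of these data known, so nothing is read from their counts. Lox, which crosslinks collagen and elastin, was at 1.63 and 1.96 on the vehicle arrays and at -0.41 and -0.29 on the DAPT arrays, a change of -2.14 ± 0.20 (adjusted p = 0.00012). Its red change was -1.98 and its green change 0.16. Its relatives Loxl2 (-1.68 ± 0.19, adjusted p = 0.00035) and Loxl1 (-1.59 ± 0.21, adjusted p = 0.0010) fell as well. Fkbp10, a folding helper of collagen in the endoplasmic reticulum, fell by 1.65 ± 0.20 on the log2 scale (adjusted p = 0.00047). Pcolce, which speeds removal of the C-terminal propeptide, fell by 1.53 ± 0.22 (adjusted p = 0.0015).

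The gene called higher was its relative Pcolce2, whose probe was not well above background on either vehicle array and so entered the fit only through the DAPT arrays. Its measured red signal was 1.69-fold higher with DAPT, a value made uncertain by the dim vehicle arrays. Its measured ratios were -0.15 and 0.17 on the vehicle arrays and 0.94 and 0.95 on the DAPT arrays (adjusted p = 0.016), and with probes required to be bright on all 4 arrays it was not tested. The other 25 genes of the list did not pass the test, the prolyl and lysyl hydroxylases among them, and the median of the 31 was -0.33, against -0.06 over all genes.

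Of 10 collagen receptor genes 7 could be tested, 3 were called lower and 1 higher, against 4.0% and 2.82% of all genes. Mrc2, an endocytic receptor that takes up collagen, fell by 1.30 ± 0.26 (adjusted p = 0.011). Ddr2, a receptor kinase for fibrillar collagen, fell by 0.80 ± 0.20 (adjusted p = 0.031). Itga11, the fibroblast integrin chain for fibrillar collagen, was called lower with a change of -1.03 ± 0.20 (adjusted p = 0.0088), but its probe was well above background on only 1 of the 2 DAPT arrays. It entered the fit through the vehicle arrays and was not tested with probes required to be bright on all 4 arrays. All 3 are known from fibroblasts and other mesenchymal cells. The median of the 7 was -0.18. Itgb1, the beta chain shared by the collagen-binding integrins, rose by 0.98 ± 0.25 (adjusted p = 0.036), from 1.24 and 1.98 to 2.43 and 2.75. The Ddr2 call was lost without vehicle 2 (-0.73), without DAPT 2 (-0.69), with scale normalization (-0.45) or with median centring (-0.69). The Itgb1 call was lost without vehicle 1 (0.61), without DAPT 2 (0.81), with scale normalization (0.52), with the mean of its probes (0.63) or with the processed signals (0.92).

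Among 13 proteoglycans and other proteins that bind fibrils, 8 could be tested, 4 fell and none rose, with a median of -1.21. Over all genes 4.0% were called lower and 2.82% higher, with a median of -0.06. Sparc, a collagen-binding matrix protein, had ratios of 0.54 and 0.62 with vehicle and -1.86 and -1.75 with DAPT (change -2.39 ± 0.19, adjusted p = 4.99e-05). Bgn (-1.89 ± 0.23, adjusted p = 0.00045) and Dcn (-1.85 ± 0.23, adjusted p = 0.00054) encode the small proteoglycans biglycan and decorin, which coat fibrils. Thbs1, a secreted matrix protein, fell by 0.89 ± 0.23 (adjusted p = 0.036), where its red change was -0.07 and its green change 0.82. The Thbs1 call was lost without vehicle 2 (-0.73) or DAPT 1 (-0.63). On the red channel alone none of the genes named in these 3 lists was called. With the debris spots kept only Lox, Sparc and Bgn of them were.

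**Figure D4:**
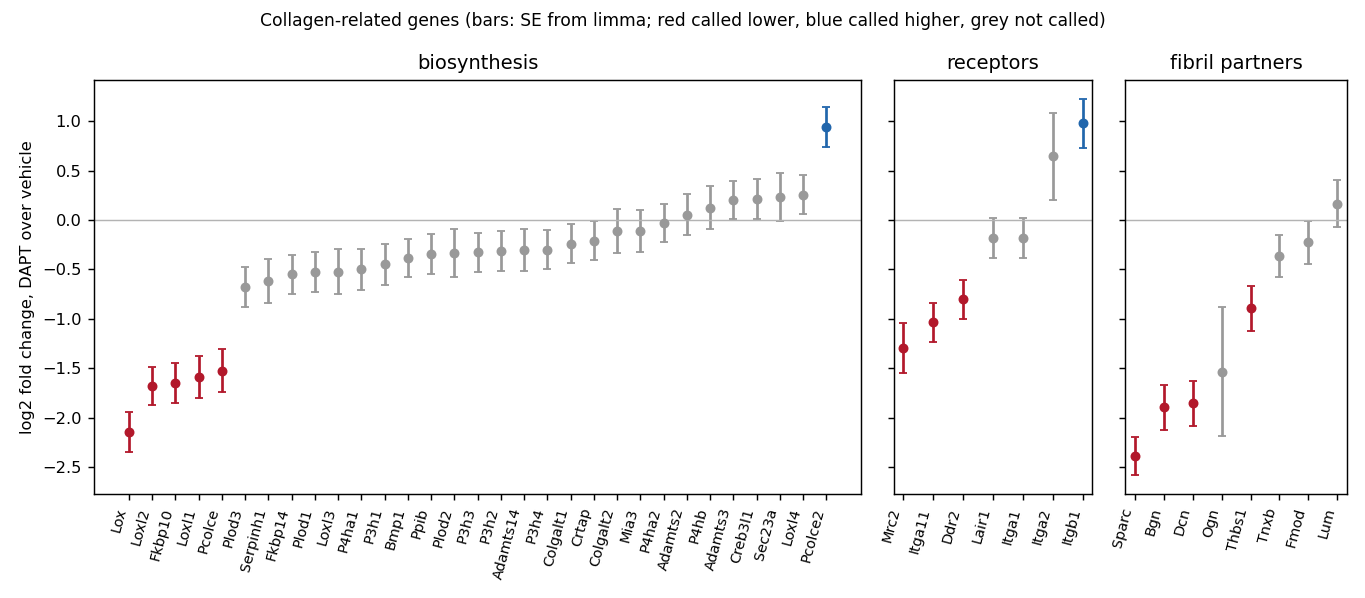
Log2 fold change, DAPT over vehicle (y axis; bars are the SE from limma, 2 arrays a group), for the tested genes of the biosynthesis, receptor and fibril partner lists (x axis), with genes called lower in red, called higher in blue and not called in grey. Lox at -2.14 and Sparc at -2.39 lie lowest in their panels, and Pcolce2 and Itgb1 are the genes called higher.

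The cell type labelled was set against its markers. All 10 basal epithelial markers could be tested and none was called. Their mean log2 ratio was 3.76 and 3.56 on the vehicle arrays and 3.92 and 3.82 on the DAPT arrays. Krt5 and Krt14, the basal keratins, changed by 0.27 and 0.04, and Krt8, a luminal keratin, by -0.36. Epcam, a surface protein of epithelia, changed by -0.89 (adjusted p = 0.059). The mean of the basal markers was thus well above the reference on all 4 arrays. So was that of the 8 luminal markers tested, at 2.91 and 2.78 with vehicle and 2.44 and 2.33 with DAPT. Ratios to this reference therefore do not set basal cells apart from luminal ones.

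Of 16 markers of fibroblasts and smooth muscle other than collagens that could be tested, 8 fell, none rose and 8 were not called. Over all genes 4.0% were called lower and 2.82% higher. Their mean log2 ratio was 0.19 and 0.41 with vehicle and -0.76 and -0.58 with DAPT. Vim, an intermediate filament gene of mesenchymal cells, fell by 1.91 ± 0.23 (adjusted p = 0.00042), from -2.19 and -1.73 to -4.05 and -3.68. Pdgfrb, a receptor of pericytes and fibroblasts, fell by 1.45 ± 0.24 (adjusted p = 0.0039), from 0.07 and 0.05 to -1.74 and -1.04. Both were well above background on all 4 arrays. Of the smooth muscle genes, Myh11 was called lower, at -1.16 (adjusted p = 0.0088). Acta2, Cnn1, Tagln and Des were not called, at -0.04, 0.29, -0.53 and -0.48. Neither were the fibroblast genes Pdgfra, Fap and Fbln1, at -0.40, -0.29 and -0.30. These genes, Myh11 among them, were named after their values were seen. Dcn stands in this list and among the fibril partners. Of 7 endothelial markers 3 could be tested and the other 4 were too dim, and of 8 leukocyte markers 7, with none called in either list. Pecam1 changed by 0.23 and Ptprc by 0.04. The part of stromal cells in the lower collagen ratios was not tested.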

How the data were processed

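RNA of vehicle and DAPT prostate spheres (2 arrays each) was measured on 2-colour Agilent arrays against a common reference. Agilent Feature Extraction 10.7.3.1 wrote the scanner files, which hold, per the file headers, spot and local background intensity values as median pixel brightness, not normalized, and processed intensity values already background-subtracted and dye-normalized. The scanner's deposited log10 ratios (red over green) served only to settle which way the authors' value table runs. That table, deposited as log2 values, runs as sample over reference (r of 0.869 to 0.902 with the scanner ratios and of 0.9996 to 0.9998 with the ratios computed here; column medians -0.0053, -0.016, -0.020 and -0.016). How the authors normalized it is not stated in these sources.

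Median spot intensities were corrected with normexp (offset 50) and loess within each array, control spots at weight 0. Of 45018 spots, 43379 were probe spots of 41174 probes, and 24375 probes were named through RefSeq accessions (GRCm38.p6). Debris spots, with local background above 5 array medians, were left out. Kept probes had red signal well above background on both arrays of 1 or both groups. Each gene was represented by its brightest kept probe. Groups were compared with limma 3.58.1 in R 4.3.3 (lmFit and eBayes, two-sided, Benjamini-Hochberg over 21469 genes), with 2 residual and 10.51 prior degrees of freedom. With 2 arrays a group, the number of arrays limits the precision. The script was tested on simulated data.

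The collagen group and all lists were chosen with earlier results of these data known. Values in every array were to be given for each collagen called or changed by at least 1, the others by range, counts and the brightest of a class, and for genes of the other lists when called. Protein features were not analysed here. Across genes, deviations from the group means had an r of 0.086 between arrays of the same replicate number. This cannot show whether the arrays were paired, and the main fit used no pairing. With the replicate number as a block, 1184 genes were called lower and 873 higher, against 858 and 605 in the main fit. The slide could not serve as a block, since all arrays shared 1 slide.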

Additional observations from a re-analysis of the deposited data

How the results depend on the processing

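The 14 collagens called lower kept a change below 0 in every alternative that could test them, but their calls did not all hold. Median centring of each array gave 9 collagens called lower and 2 higher (531 and 1220 of all genes), a collagen median of -0.53, no biosynthesis gene higher, and changes of 0.11 for Col11a2, 0.14 for Col4a2, 0.38 for Col4a4, -0.44 for Col9a1 and 0.053 for Col9a2, all uncalled and of opposite sign. Scale normalization gave 0.078 for Col11a2 and 0.085 for Col4a4, 372 genes higher and 0 receptors higher. Processed signals gave 6 collagens lower, 334 genes lower and 281 higher, 0 biosynthesis and 0 receptor genes higher, a collagen median of -0.60, and 0.34 for Col4a4 and -0.26 for Col9a1. The sample channel alone gave 0 collagens, 0 biosynthesis genes, 0 receptors and 0 fibril partners called either way by limma, 1 gene lower and 0 higher in all (2617 at an unadjusted p under 0.05), a collagen median of -0.43 and 0.10 for Col4a5. With debris spots kept, 2 collagens, 1 biosynthesis gene, 0 receptors and 2 fibril partners were called lower and 0 biosynthesis genes or receptors higher. All genes then gave 80 lower and 4 higher, the collagen median was -0.63, and Col11a2, Col6a1 and Col6a2 were at 0.26, 0.055 and 0.073. With marked spots left out 3 of 4 testable collagens were lower, while 0 of 3 biosynthesis genes and 0 of 1 fibril partner were lower. No receptor could be tested then (0 lower, 0 higher), with 71 genes lower and 165 higher in all, a median of -1.10 over the few collagens left and -0.75 for Col4a6. Requiring signal on all 4 arrays gave 0 biosynthesis genes higher, and no filter gave a collagen median of -0.63. The mean of a gene's probes gave -0.15 for Col27a1 and -0.35 for Col4a6, added a call of Col4a1 and ended those of Col2a1 and Itgb1. The causes of these changes were not tested, except that leaving out marked spots or dim probes leaves fewer genes to test. Leaving out each array in turn gave 13 to 16 collagens lower, medians of -0.96 to -0.70, 0 to 1 receptor higher, and changes of -0.25 to 0.19 for Col4a4 and -0.17 to 0.25 for Col4a6. With the replicate block, 15 collagens were called lower (Col6a1 added) and all 14 were kept. Without local background subtraction and with the authors' value table all 14 calls held. The slide as a block was not run, because all arrays shared 1 slide. Dim signal makes the fold changes of Col8a2 and Pcolce2 uncertain, and Itga11 was bright on only 1 of the 2 DAPT arrays.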

Other observations

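Other collagen genes on the array were outside the group described above. Col17a1, a transmembrane collagen of hemidesmosomes made by basal cells, had log2 ratios of 2.65 and 3.41 on the vehicle arrays and 3.79 and 3.72 on the DAPT arrays. Both DAPT arrays were higher, but the change of 0.73 ± 0.24 (SE) did not pass the limma test (adjusted p = 0.095), and the red change was 0.14 against a green change of -0.59. Col26a1 changed by 0.19 and Col6a4 by -0.08, and neither was called. Col24a1, Col28a1 and Col6a6 were too dim to test.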
